A study of Danio rerio with 6 samples.

Results

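The dorsal organizer is the group of cells at the dorsal margin of the early gastrula that patterns the embryo. Its genes were measured here in the enveloping layer (EVL), the outermost epithelial sheet of the zebrafish embryo, and in all other sorted cells. The 8 genes described, chosen by name, were chd, nog1, frzb, dkk1b, gsc, noto, lhx1a and hhex, out of 31953 genes in the files. Of these, 7 were found under their own name, and hhex was found by its identifier (ENSDARG00000098231), since the files list it as HHEX. The other identifiers were ENSDARG00000006110 (chd), ENSDARG00000058819 (nog1), ENSDARG00000018383 (frzb), ENSDARG00000045219 (dkk1b), ENSDARG00000059073 (gsc), ENSDARG00000021201 (noto) and ENSDARG00000014018 (lhx1a). The study compared GFP-positive (EVL) with GFP-negative (non-EVL) cells sorted from Tg(krt18:krt18-GFP) embryos at 6 hpf (hours post fertilisation), with 3 libraries in each group, called EVL and non-EVL libraries 1, 2 and 3 after their labelled replicate numbers. All 6 libraries came from the same transgenic strain and stage, and the transgene puts GFP-tagged keratin 18 under the krt18 promoter. The labels give about 1500 embryos per cell suspension, so each library is a pool. The labels describe the GFP-negative cells as non-EVL and give no further split of them. Libraries held 32.2M to 46.1M reads assigned to genes, of which one gene, listed as AC024175.4, took between 30.1% and 42.7%.

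Organizer cells form where maternal beta-catenin signalling and Nodal signals act together at the dorsal margin. They secrete antagonists that hold back ventral BMP signals (chordin and noggin) and Wnt signals (Frzb and Dickkopf), and they express homeobox transcription factors (Goosecoid, Noto and Lhx1a) that direct the prechordal plate and notochord. In zebrafish, hhex is also known from the dorsal yolk syncytial layer, the nucleated layer that lies against the yolk.

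The organizer genes other than hhex were expressed in both EVL and non-EVL sorts. For none was the difference larger than the spread between libraries of one group, in the model of group alone. Of the 8 genes, 7 had a normalised read count (reads divided by one size factor per library) of at least 10 in at least 3 libraries and were tested, and 0 were higher and 0 lower at an adjusted p under 0.05 (limma with Benjamini-Hochberg adjustment over 15971 tested genes). Over all tested genes 8.8% were higher and 0.676% lower by the same rule. At an unadjusted p under 0.05 the count was also 0 of 7, where 23.0% of all tested genes passed. The edgeR quasi-likelihood test, which called 9.16% of all tested genes in either direction, DESeq2, which called 14.5%, and limma-voom each called 0 of the 7 as well. In none of the 7 genes did the 3 libraries of one group lie beyond the 3 of the other, where 30.9% of all tested genes had this. Whether the counts among only 7 genes depart from the shares over all tested genes was not tested. The fitted differences were positive for 4 genes and negative for 3, with a median log2 fold change of 0.18 beside -0.057 for all tested genes. Single libraries moved this median to -0.32 (without EVL library 3), -0.12 (without non-EVL library 2) or 0.44 (without EVL library 2), so its sign depended on the libraries included. The labels do not state that the 3 libraries of a group are separate clutches or sorts. The p-values therefore rest on the spread between these libraries alone, and that spread may be technical. In bulk samples such as these, fewer cells of a type and less RNA per cell cannot be told apart.

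**Figure D1:**
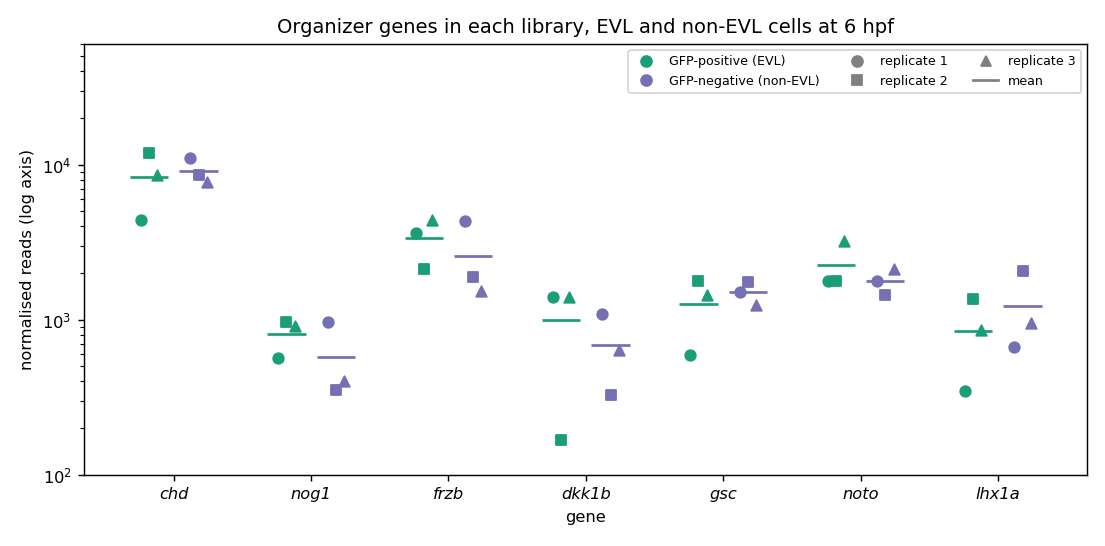
Normalised reads (log axis) of the 7 tested organizer genes in each library; colour gives the group, the symbol gives the replicate and the horizontal bar is the mean of 3 libraries. The groups overlap for every gene, and dkk1b spans the widest range, from 167 in EVL library 2 to 1409 in EVL library 1.

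The secreted BMP antagonists chd and nog1 overlapped between the groups. Chordin, encoded by chd, binds BMP ligands outside the cell and is cut by Tolloid proteases. The chd values were 4422, 11945 and 8601 normalised reads in EVL libraries 1, 2 and 3 and 11102, 8622 and 7721 in non-EVL libraries 1, 2 and 3. The GFP-positive group held both the lowest and the highest library, so the groups overlapped. The mean was 8323 ± 3770 against 9148 ± 1751 normalised reads (SD, n = 3 each), and the log2 fold change was -0.23 (SE 0.34; limma, adjusted p = 0.733). Its 95% interval ran from -1.01 to 0.55, from 2.02-fold lower to 1.46-fold higher in EVL cells.

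Noggin 1, encoded by nog1, binds BMP ligands as chordin does. The nog1 values were 562, 964 and 908 normalised reads in EVL libraries 1, 2 and 3, and 965, 355 and 400 in non-EVL libraries 1, 2 and 3. Of these, non-EVL library 1 stood level with the highest GFP-positive library, and the other two GFP-negative libraries lay below every GFP-positive one. The log2 fold change of 0.61 (SE 0.40, 95% interval -0.32 to 1.54; limma, adjusted p = 0.418) was the one farthest from 0 of the 7 genes. Without non-EVL library 1 it was 1.07, with an adjusted p of 0.0759 in limma, the lowest adjusted p of any organizer gene under any alternative.

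The secreted Wnt antagonists overlapped as well. Frzb is a soluble Frizzled-related protein that binds Wnt ligands. The frzb values were 3618, 2108 and 4366 normalised reads in EVL libraries 1, 2 and 3, and 4337, 1898 and 1539 in non-EVL libraries 1, 2 and 3. The highest library of each group stood at nearly the same level, and the other GFP-negative libraries were the lowest of the 6. The log2 fold change was 0.46 (SE 0.41, 95% interval -0.48 to 1.41; limma, adjusted p = 0.556).

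Dickkopf 1b, encoded by dkk1b, blocks the Lrp5 and Lrp6 co-receptors of Wnt. The dkk1b values were 1409, 167 and 1393 normalised reads in EVL libraries 1, 2 and 3, and 1085, 326 and 641 in non-EVL libraries 1, 2 and 3. Library 2 was the lowest of both groups. The arithmetic mean in EVL cells was 145% of that in non-EVL cells (990 ± 712 against 684 ± 381, SD, n = 3 each), but the log2 fold change was 0.18 (SE 0.82; limma, adjusted p = 0.922). The 95% interval reached from -1.70 to 2.06, so it includes levels from 3.25-fold lower to 4.16-fold higher in EVL cells. The value turned to -0.34 without EVL library 1, -0.33 without EVL library 3 and -0.27 without non-EVL library 2, and was 1.20 without EVL library 2.

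Among the transcription factors, Goosecoid is a homeodomain repressor and the classic marker of the organizer and prechordal plate. The gsc values were 589, 1765 and 1448 normalised reads in EVL libraries 1, 2 and 3, and 1511, 1754 and 1236 in non-EVL libraries 1, 2 and 3. EVL library 1 was low, and the other GFP-positive libraries lay within or just above the GFP-negative range. The log2 fold change was -0.37 (SE 0.39, 95% interval -1.26 to 0.52; limma, adjusted p = 0.623). Without EVL library 1 it was 0.11, and that of chd was 0.16, so the sign of both rested on that library.

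Noto, known from the floating head mutant, is a homeodomain factor needed for the notochord. The noto values were 1772, 1781 and 3196 normalised reads in EVL libraries 1, 2 and 3, and 1783, 1433 and 2109 in non-EVL libraries 1, 2 and 3. EVL libraries 1 and 2 and non-EVL library 1 nearly coincided, and EVL library 3 was the highest. The log2 fold change was 0.30 (SE 0.27; limma, adjusted p = 0.559), with the narrowest 95% interval of the 7 genes, from -0.32 to 0.92. It was 0.019 without EVL library 3.

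Lhx1a is a LIM-homeodomain factor of the organizer that works with Ldb cofactors. The lhx1a values were 345, 1351 and 853 normalised reads in EVL libraries 1, 2 and 3, and 672, 2071 and 954 in non-EVL libraries 1, 2 and 3. Library 2 was the highest and library 1 the lowest in each group. The ratio of EVL to non-EVL libraries of the same number was 0.51, 0.65 and 0.89 for numbers 1, 2 and 3. The log2 fold change was -0.58 (SE 0.55, 95% interval -1.85 to 0.69; limma, adjusted p = 0.587). Leaving out 1 library moved it between -1.02 (without EVL library 2) and -0.034 (without EVL library 1).

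The homeobox gene hhex, read from the row listed as HHEX, had close to no reads in these libraries. It had 2, 0 and 0 reads in EVL libraries 1, 2 and 3 and 2, 0 and 1 reads in non-EVL libraries 1, 2 and 3. That made 5 reads in all, where the 6 libraries together held 226.8M. Each library is at or under 3 reads, the count that a value of 0 allows, so no fold change is given. That limit covers counting error only. The annotation release is not given, so low expression and reads missed by the gene model of that row cannot be told apart.

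**Figure D2:**
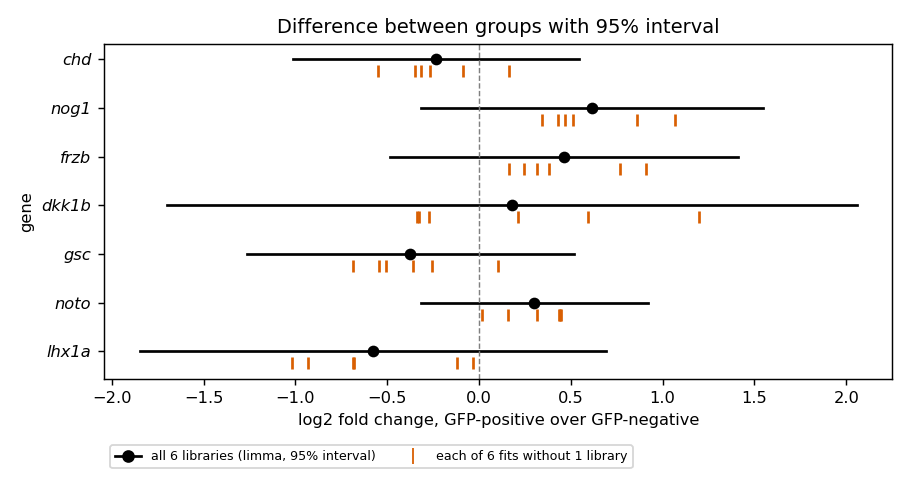
Log2 fold change of GFP-positive over GFP-negative cells for the 7 tested organizer genes, with the 95% interval from limma on all 6 libraries (black) and the values from the 6 fits that each leave out 1 library (orange). All 7 intervals include 0, and the fits without 1 library fall on both sides of 0 for chd, gsc and dkk1b.

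The genes differed in how much they varied between libraries of one group. The residual SD of noto was 0.40 log2 units, near the median of 0.44 over all tested genes, and those of chd, gsc, nog1 and frzb were 0.55, 0.62, 0.63 and 0.68. The lhx1a gene had 0.92 and dkk1b 1.39, which is above 83.3% and 94.7% of tested genes. In GFP-positive cells the highest library exceeded the lowest 8.43-fold for dkk1b and 3.91-fold for lhx1a, and in GFP-negative cells 3.33-fold and 3.08-fold. EVL library 1 was the lowest GFP-positive library for 5 of the 7 genes (chd, nog1, gsc, noto and lhx1a) and the highest for dkk1b. In the GFP-negative group the lowest was library 3 for chd, frzb and gsc, library 2 for nog1, noto and dkk1b, and library 1 for lhx1a. Each value of a tested gene rested on between 151 and 12779 reads.

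**Figure D3:**
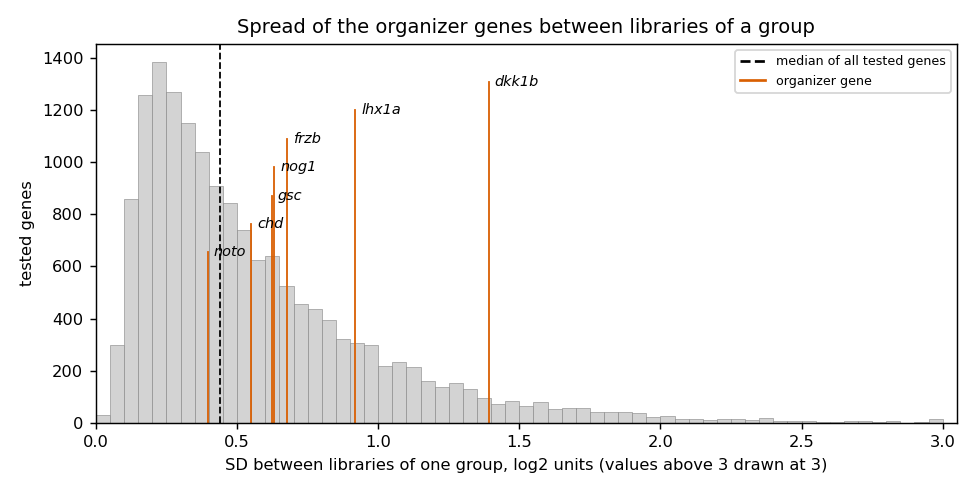
Number of tested genes (vertical axis) by the SD between libraries of one group in log2 units (horizontal axis), with the 7 organizer genes marked by orange lines, whose height has no meaning, and the median of all tested genes dashed. The noto gene lies near the median of 0.44, and lhx1a (0.92) and dkk1b (1.39) lie in the upper part of the distribution.

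The profile of each organizer gene over the 6 libraries was compared with those of other genes. By Pearson's r of log2 values among 8637 genes with a mean of at least 100 normalised reads, gsc was closest to pcdh8 (r = 0.998), nog1 to itpkca (0.993) and chpfa (0.978), and lhx1a to hm13 (0.992) and acaa2 (0.991). The dkk1b profile was closest to prr12b (0.988) and ppp2r5cb (0.988), noto to tmem98 (0.978) and pkn2 (0.970), frzb to pigl (0.972) and camsap1b (0.971), and chd to acss3 (0.970) and slc30a9 (0.969). With 6 points, all from the same libraries, and this many candidates, values this high describe the profiles and carry no test.

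Lists of related genes were read beside the organizer genes. Of 23 secreted or membrane BMP modulators, 15 were tested, with a median log2 fold change of -0.23. In this list 0 were higher and 1 was lower, where 0.676% of all tested genes were lower. The lower gene was szl, which encodes Sizzled, a ventral inhibitor of Tolloid. The szl values were 125, 126 and 232 normalised reads in EVL libraries 1, 2 and 3, and 810, 601 and 744 in non-EVL libraries 1, 2 and 3 (log2 fold change -2.20, SE 0.31; limma, adjusted p = 0.00306). These groups did not overlap, unlike those of chd and nog1. The BMP-like ligand gene admp, also made in the organizer, was at -0.31 (limma, adjusted p = 0.409). By the same test the follistatin-like gene fstl1b was at 0.76 (0.310), and the BMP pseudoreceptor gene bambia was at -1.24 (0.0527). The bambia gene passed the threshold in 11 of 21 alternatives. In the other direction tll1, which encodes a Tolloid-like protease and was named after its values were seen, was at 1.49 (limma, adjusted p = 0.0573) and passed in 6 of 21. The follistatin gene fsta ranged from 52.0 to 1516 normalised reads in GFP-positive and from 40.4 to 2793 in GFP-negative libraries. Its direction depended on the measure: the log2 fold change was 0.46 (limma, adjusted p = 0.900) while the arithmetic mean was lower in EVL cells (659 against 981), edgeR with TMM gave -0.52, and leaving out 1 library gave -0.79 (non-EVL library 2) to 2.25 (non-EVL library 1).

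Of 19 Wnt antagonist genes, 9 were tested, with a median log2 fold change of 0.010. In the main limma fit and in edgeR 0 were called in either direction. At an unadjusted p under 0.05 in limma 1 passed, where 23.0% of all tested genes did. DESeq2 called 1 higher, as did limma without trend or robust shrinkage. The abundant sfrp1a, a secreted Frizzled-related gene, and shisa2a, of the Shisa family of Wnt and FGF receptor antagonists, were both at 0.01 with SE 0.20 and 0.17. The Wnt deacylase gene notum1a was at -0.86 (limma, adjusted p = 0.507) and sfrp5 at 0.43 (0.631).

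Of 33 genes of the axial mesoderm and dorsal margin, which include gsc, noto, lhx1a and hhex, 29 were tested, 3 were higher and 0 lower, with a median log2 fold change of -0.17. A count of 3 in 29 is near the 8.8% of all tested genes called higher. Without EVL library 1 the median was 0.088, and without EVL library 3 the list had 2 lower genes. The forkhead gene foxa2, which acts in axial mesoderm and endoderm, had 6562, 13194 and 7269 normalised reads in EVL libraries 1, 2 and 3 and 4048, 2297 and 2016 in non-EVL libraries 1, 2 and 3. Its groups did not overlap, and its log2 fold change was 1.69 (SE 0.34; limma, adjusted p = 0.0162). The call was lost without non-EVL library 2 (adjusted p = 0.0708) or 3 (0.0667), where the log2 fold change was 1.58 and 1.49, and in limma without trend or robust shrinkage (0.0630). The Krueppel-like factor gene klf17, used in the later hatching gland, was higher by 2.71 on the log2 scale (SE 0.21; limma, adjusted p = 0.000647).

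The third higher gene was col2a1a, a collagen gene of the later notochord, with 39.5, 31.0 and 19.2 normalised reads in EVL libraries 1, 2 and 3 and 6.08, 0 and 0 in non-EVL libraries 1, 2 and 3. This gene reached the minimum of 10 only through the GFP-positive libraries, the group where it is high, so its place among the higher genes is no independent support. Its call (limma, adjusted p = 0.0386) held in 11 of 20 alternatives. With all libraries it was lost with a pseudocount of 0.5 (adjusted p = 0.0535) and in the edgeR fits (0.0788 to 0.105). In the fits that each left out EVL library 1, 2 or 3 its adjusted p was 0.142, 0.113 and 0.0767, and in those without non-EVL library 2 or 3 it was 0.112 and 0.113. The T-box gene tbxta, of the notochord and margin, was at -0.92 (limma, adjusted p = 0.127), and the head genes otx2a and otx1 were at 0.12 (0.845) and -0.28 (0.441).

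Of 25 genes of the beta-catenin pathway that sets up the organizer, 22 were tested, with a median log2 fold change of -0.32. Of these, 0 were called by limma, edgeR with TMM or DESeq2. At an unadjusted p under 0.05 (limma) 4 passed, where 23.0% of all tested genes did. The beta-catenin genes ctnnb1 and ctnnb2 were at -0.33 (limma, adjusted p = 0.289) and -0.29 (0.575), and the repressor gene tcf7l1a was at -0.09 (0.780). The kinase genes gsk3ab and csnk1a1 were at -0.15 (0.583) and 0.33 (0.202), and ctnnbip1, which encodes a beta-catenin inhibitor, was at -0.31 (0.357).

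Of 20 genes for Lhx1 and Gsc partners and co-regulators, 16 were tested, with a median of -0.24. Of these, 0 were called by limma, edgeR with TMM or DESeq2. At an unadjusted p under 0.05 (limma) 1 passed, where 23.0% of all tested genes did. The cofactor genes ldb1a and ssbp3b were at -0.31 (limma, adjusted p = 0.309) and -0.44 (0.331), and foxh1, the Nodal pathway factor, was at -0.86 (0.162). The Groucho family co-repressor genes tle2a, tle3a and tle3b were at -0.24 (0.352), -0.05 (0.902) and -0.25 (0.438).

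On the opposing ventral side, all 26 listed genes were tested, with a median log2 fold change of -0.34. At an unadjusted p under 0.05 (limma) 10 passed, where 23.0% of all tested genes did. Over all tested genes 0.676% were lower at the adjusted threshold. In this list 0 were higher and 4 were lower. Beside szl these were tfap2c, an AP-2 factor of the ectoderm (-1.04, SE 0.17; limma, adjusted p = 0.00598), the homeobox gene eve1 (-1.48, SE 0.36; 0.0389) and the ligand gene bmp4 (-0.91, SE 0.24; 0.0491), which was named after its values were seen. The call of eve1 was lost without EVL libraries 1 (adjusted p = 0.0834) or 2 (0.0943) and without non-EVL libraries 2 (0.150) or 3 (0.144). That of bmp4 was lost without any single library (0.0571 to 0.175). The transcription factor gene cdx4, the Id gene id1 and the BMP effector gene smad5 were at -0.76 (limma, adjusted p = 0.461), -0.78 (0.190) and -0.31 (0.393). Whether the organizer genes and the ventral genes differ in their response was not tested.

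**Figure D4:**
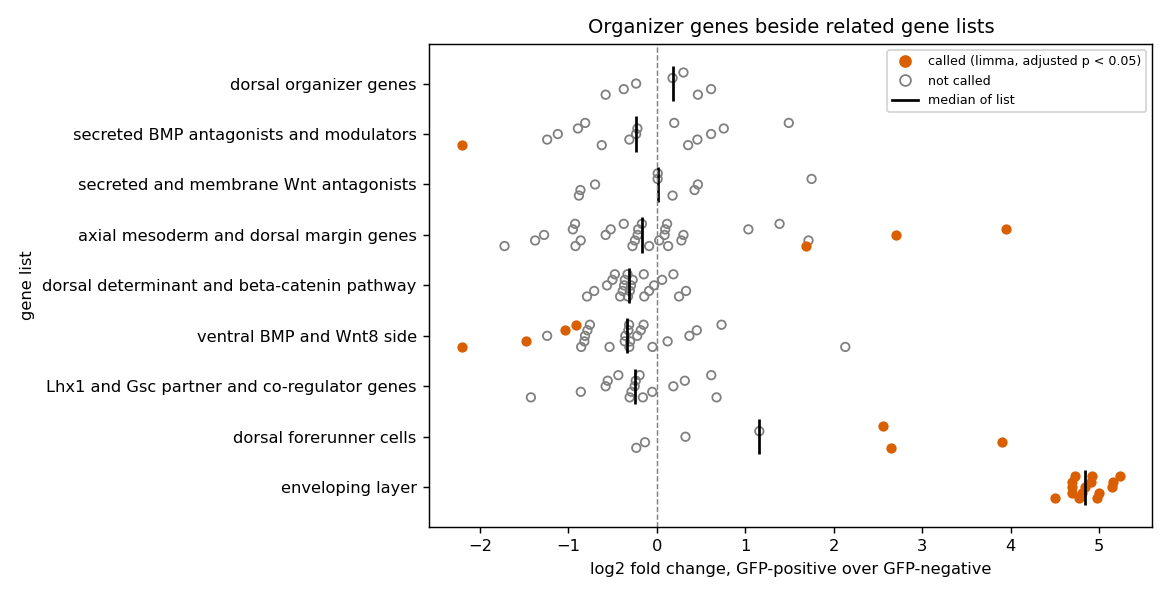
Log2 fold change of GFP-positive over GFP-negative cells for each tested gene (points) in the organizer group, 6 related lists and 2 marker lists, with called genes filled and the median of each list as a black bar. No organizer gene is called, the 15 enveloping layer markers lie near their median of 4.84, and 3 dorsal forerunner markers are called higher.

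The markers of other cell types in the suspension give the setting. All 15 enveloping layer markers were higher in GFP-positive cells (median log2 fold change 4.84), and their summed level was 720993 to 2399480 normalised reads against 37242 to 50031 in GFP-negative cells. The list includes krt18, the gene of the transgene used for sorting, so that gene is no independent check of the sort. The other markers were chosen with earlier results of these data known, so their calls are no independent check either. Over all tested genes 8.8% were called higher. The highest summed level was that of EVL library 1, the library that was lowest for 5 organizer genes and highest for dkk1b. For noto, counted among the 5, EVL library 2 was nearly level (1772 against 1781). The part of the summed marker level in the organizer values was not tested. Dorsal forerunner cells are a small cluster at the dorsal margin of the zebrafish gastrula that derive from the surface layer. Of 9 of their markers 7 were tested and 3 were higher, namely sox32 (log2 fold change 2.56), sox17 (2.65) and foxj1a (3.91), with 0 lower. The other tested markers were not called, and the median of the 7 was 1.16. The sox32 and sox17 genes were not in the margin mesoderm and endoderm list below, so its counts do not cover them. The tbx16 gene was in each list. The summed level of the forerunner list was 38442 to 83212 in GFP-positive and 32384 to 43283 in GFP-negative libraries, and dnah9 and dand5 were below the minimum level. The part of such cells in the noto and foxa2 values was not tested. Of 10 markers of the yolk syncytial layer 5 were tested and 1, apoeb, was lower, while the median log2 fold change of the 5 was 0.23. The summed level was 44946 to 58911 against 77776 to 93443 normalised reads, of which apoeb alone had 44827 to 58757 and 77707 to 93302. The apoeb call was lost without non-EVL libraries 1 (limma, adjusted p = 0.0572) or 2 (0.0952), and apoa4b.1 was at 0 in all libraries.

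Of 10 margin mesoderm and endoderm markers, 10 were tested and 0 were called by limma, edgeR with TMM or DESeq2. At an unadjusted p under 0.05 (limma) 3 of these markers passed, where 23.0% of all tested genes did. Their summed level was 34857 to 62726 normalised reads in GFP-positive against 62369 to 66135 in GFP-negative libraries. Over all tested genes 0.676% were called lower by limma. Of 8 dorsal ectoderm markers 3 were lower, sox2 and sox3 among them, with summed levels of 28280 to 50219 against 59770 to 73837. Of 6 germ cell markers 3 were lower (dnd1, nanos3 and tdrd7a), with 1778 to 3781 against 3910 to 7344. These counts of lower genes ranged from 1 to 3 for dorsal ectoderm and from 1 to 4 for germ cells when 1 library was left out, with 1 lower dorsal ectoderm gene without non-EVL library 2 or 3 and 1 lower germ cell gene without non-EVL library 2. The calls of sox2 and dnd1 held in all 6 such fits, and those of sox3, nanos3 and tdrd7a did not. Where lost, the adjusted p (limma) was 0.0881 to 0.129 for sox3 (without EVL libraries 1 or 2 or non-EVL libraries 2 or 3). It was 0.0568 for nanos3 (without non-EVL library 2) and 0.0525 to 0.0733 for tdrd7a (without EVL libraries 1 or 3 or non-EVL library 2). The GFP-positive level of dnd1, a single marker of its list, was 5.66% of its GFP-negative level. The organizer genes stood between 69.0% (lhx1a) and 145% (dkk1b) of theirs. The summed levels of the germ cell, dorsal ectoderm and margin lists differed less between the groups than dnd1 did. Of the margin list, tbxta stood at 54.4%, mixl1 at 59.6% and ndr1 at 250% of their GFP-negative levels. The dnd1 value is therefore no yardstick for the organizer genes. The part of non-EVL cells in the organizer values of the GFP-positive sort was not tested.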

How the data were processed

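The authors deposited 1 normalised signal value per gene and library. Divided by the smallest value of its library, 100% of values came out whole (within 0.01 read), and the scaling factors matched DESeq2 size factors computed on these reads. Per the submitters' processing notes, Trim Galore, STAR 2.6.1d, featureCounts, DESeq2 and the build danRer10 were used on single-end reads of 50 nt from SMARTseq2 libraries. The sources used here do not give the annotation release, the use of strand or the handling of multiply mapped reads, so genes with an antisense partner or a near-identical copy are uncertain.

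Of 31953 genes, 15971 reached a minimum of 10 in 3 or more libraries. They were tested with limma 3.58.1 (R 4.3.3) on log2(value + 1) in a model of group alone, with a mean-variance trend and robust shrinkage. The added 1 understates fold changes of low genes. Values are not per length, so levels are not compared between genes. A gene was called at a Benjamini-Hochberg adjusted p below 0.05. Calls, fold changes and intervals refer to GFP-positive over GFP-negative cells. Because the deposited unit is not counts, the count tests on recovered reads (edgeR 4.0.16, DESeq2 1.42.0) were planned as alternatives. The limma step was run on simulated libraries with planted changes. These drew every gene with the same dispersion (excess spread between libraries). They therefore do not show how often a change would be called in genes as variable as lhx1a and dkk1b.

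The organizer genes and the lists of related genes and markers were chosen with earlier results of these data known. Of 193 listed genes, 183 matched, 10 by identifier in a symbol table and 3 by a RefSeq synonym; for 4 names with several rows the row with the highest mean was used. All organizer genes are named. Per list up to 6 tested genes are named, with called genes of smallest adjusted p (at most 3 per direction) before uncalled genes of highest mean, and marker lists are given by counts with their called genes. For each organizer gene the 2 genes with the highest correlation among named genes with a mean of at least 100 are given. Some genes that these rules would name are not reported here.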

Additional observations from a re-analysis of the deposited data

How the results depend on the processing

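The counts of 0 higher and 0 lower organizer genes were the same in all 21 alternatives, which changed the pseudocount, the filter, the scaling, the test, the replicate block or the libraries included. Of 147 values of the 7 tested genes under these alternatives, 0 passed an adjusted p under 0.05, the smallest adjusted p was 0.0759 and 8 had another sign than the reported value. Without EVL library 1 the log2 fold changes of gsc, chd and dkk1b were 0.11, 0.16 and -0.34. Without EVL library 2 they were -0.68, -0.55 and 1.20. That of dkk1b was -0.33 without EVL library 3 and -0.27 without non-EVL library 2. Scaling to library size alone gave -0.0043 for noto and -0.13 for dkk1b, and upper quartile scaling gave -0.0011 for dkk1b. These scalings moved the median of all tested genes to -0.36 and -0.23, so noto and dkk1b stayed above it. The median of the organizer genes was -0.13 and -0.0011 with these scalings and -0.32 to 0.44 without 1 library, and the cause of sign changes on leaving out a library was not tested.

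Same-numbered libraries of the 2 groups are not said to share a sort. Their deviations from the group means correlated at 0.26, 0.33 and 0.075 for numbers 1, 2 and 3, and each of the 6 libraries correlated best with its own number, a hint from the data and not from the design. The deviations within a group sum to 0, so the correlations are tied together and the 6 matches are not independent. With the replicate block, limma called 0 organizer genes, and lhx1a had an unadjusted p of 0.0293 (adjusted p = 0.131). Its log2 fold change was -0.58 (SE 0.21), and its 95% interval in that fit, -1.08 to -0.08, did not include 0. The block raised the calls over all genes from 1405 to 1573 higher and from 108 to 279 lower. The edgeR block fit, added after the data were seen, called 0 organizer genes, with lhx1a at an unadjusted p of 0.0424 (adjusted p = 0.182). In limma the block raised lower calls from 3 to 6 for dorsal ectoderm, 0 to 3 for axial mesoderm, 0 to 2 for margin mesoderm, 4 to 6 for the ventral list and 1 to 3 for BMP modulators, which also had 1 higher.

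Counts over all genes moved between settings, while a count of 0 among only 7 tested organizer genes leaves little room to move. Lower genes numbered 1191 with library size alone, 269 with upper quartile scaling, 174 outside the most abundant gene, 327 in DESeq2, 54 in edgeR with TMM and 14 to 77 without 1 library, beside 108. The ventral list had 6 lower genes with library size alone, upper quartile scaling or DESeq2 and 2 in edgeR with TMM, beside 4, and the beta-catenin list had 4 with library size alone, beside 0. The BMP modulator list had 4 lower with library size alone and 3 in DESeq2, beside 1, and 1 higher in DESeq2 or under TMM scaling and 2 without non-EVL library 1, beside 0. The median of the Wnt antagonist list, 0.010, ranged from -0.30 (library size scaling) to 0.60 (without EVL library 2) and was below 0 in 5 alternatives. With 3 libraries a group, the interval of dkk1b in the model of group alone spans over 3-fold in each direction. A difference of up to that size lies within it. With the replicate block, a pairing that the labels do not state, the interval ran from -0.79 to 1.15 on the log2 scale.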
